A study of Mus musculus with 6 samples.

Results

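RNA levels of adult mouse retinal ganglion cells (RGCs), which send the eye's output along the optic nerve, were compared between cells given a miR-1247-5p mimic and cells given a scrambled one. Every gene of the deposited expression table entered whose level averaged 1 FPKM or more across its 6 libraries. FPKM counts fragments per kilobase of transcript, scaled to the mapped fragments of the library, so levels can be set side by side between genes. Of 10162 genes in the table, 9987 met this minimum and were tested. Within the table, the tested set was fixed by level alone and not by any difference between the groups. What decided which genes the deposited table holds was not examined here.

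All mice were C57/6NCrl wild type. In the adult control, 2 libraries come from RGCs with an AAV2 vector for mCherry and a scramble shRNA mimic. In the adult miR-1247 group, 2 libraries come from RGCs with AAV2 for the miR-1247-5p mimic. In both groups cells were immunopanned on Thy1 from pools of 10 retinas per condition, then sorted for mCherry, and about 5000 cells per condition were collected. Cells without the vector are thus removed from both, and the controls carry a vector and a small RNA of their own. The pan selects on Thy1, a gene that is itself among those measured. A further group of 2 libraries, untreated RGCs of embryonic day 18 (E18), about 50000 cells panned on Thy1 and not sorted, entered the estimate of the spread. Its levels are printed beside the adult ones where they help place a gene. Whether a group's 2 libraries stem from separate pools of animals is not stated in the labels, so p-values measure library-to-library spread alone, possibly technical.

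A microRNA guides a silencing complex to messenger RNAs, mostly through pairing of its seed, bases 2 to 8, with sites in the 3′ untranslated region (3′ UTR). Targets are then degraded or translated less, and further changes may follow. The study introduced miR-1247-5p to adult RGCs because its level drops as these cells mature, and asked about cell survival and axon regrowth. The libraries compared here record levels of poly-A RNA alone. The mature microRNA, from RefSeq with build GRCm38.p6, is shown 5′ to 3′ with its seed in capitals:
mmu-miR-1247-5p: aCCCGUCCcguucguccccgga

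The seed is held by 1 of the 1738 mature mouse microRNAs in the same table. Its gene, Mir1247, lies on the minus strand at chr12:110244482-110244563 (GRCm39), in the Dlk1-Dio3 imprinted region. The table does not list Mir1247, so the dose of the mimic in each library was not checked here.

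Sites for the seed were searched on the sense strand of GENCODE vM39 canonical transcripts in GRCm39, the same assembly as mm39, which the authors used. The search covered 4 classes, the 8mer GGACGGGA, the 7mer-m8 GGACGGG, the 7mer-A1 GACGGGA and the 6mer GACGGG, and each site was placed in the longest class it met. Of 486 genes with an 8mer or 7mer in the 3′ UTR, 46 (9.47%) were called lower in miR-1247 libraries and 9 (1.85%) higher. Of all genes with a 3′ UTR, 6.32% were called lower and 3.37% higher. The median log2 difference of the 486 genes was −0.008, slightly above the −0.031 of genes without a match. Below are the 3′ UTR sites of the 6 of these 46 lower genes whose call was kept when each library in turn was left out. Also shown is that of Trmt112, which is among the 9 genes called higher. They were chosen after their values were seen. The capitals mark the match to the seed.
Lynx1, 8mer, chr15:74620156-74620177, minus strand: cccaaagcagacggGGACGGGA
Rbpms, 7mer-m8, chr8:34272860-34272881, minus strand: tcactgtaaactagaGGACGGG
Cdk14, 7mer-m8, chr5:4854783-4854804, minus strand: cctccatacatctggGGACGGG
Sv2c, 7mer-A1, chr13:96096968-96096989, minus strand: catttgggaaacacaGACGGGA
Isl2, 7mer-A1, chr9:55452956-55452977, plus strand: gaggcacgcgaccgcGACGGGA
Prr5, 7mer-A1, chr15:84587763-84587784, plus strand: cctggcctccggagtGACGGGA
Trmt112, 7mer-m8, chr19:6888667-6888688, plus strand: aggagaggagcgaagGGACGGG

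The libraries of each adult group were alike, with r of log2(FPKM + 1) across genes of 0.98 between the controls and 0.984 between the miR-1247 libraries. Between the groups r was 0.96 to 0.962. The deposited values hold no read counts, and depth is therefore unknown. The genes of the mitochondrial genome took 10.37% and 4.41% of the listed FPKM in the controls and 12.84% and 19.11% in the miR-1247 libraries.

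RGC genes were lower with the mimic, while B2m of MHC class I and the growth factor binding genes Igfbp4 and Igfbp2 were among the higher ones. With limma, 974 of 9987 genes (9.75%) passed an adjusted p of 0.05, 353 higher (3.53%) and 621 lower (6.22%) in miR-1247 libraries. Most of the differences were small. A change of at least 2-fold was met by 44 of the higher genes (0.441%) and 76 of the lower ones (0.761%), and the median size of a called difference was 0.56 (log2). The median over all genes was −0.03, with quartiles at −0.23 and 0.17. Higher genes made up 36.2% of the calls as deposited, 46.7% under median ratio scaling (463 higher, 529 lower) and 47.7% with equal totals outside the mitochondrial genome (467 and 512). Under each, more genes were lower than higher.

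Every called gene had both miR-1247 libraries on one side of both controls. Over all tested genes that alone held for 25.3% above and 32.4% below. How many genes passed rested on each library. Higher and lower calls numbered 78 and 107 when control library 1 was left out, 71 and 106 when control library 2 was, 35 and 86 for miR-1247 library 1, and 38 and 101 for miR-1247 library 2. Leaving out an E18 library gave 76 and 163 (library 1) or 77 and 165 (library 2). With 1 library left in a group, that library was assumed to vary like the others. Of the 974 calls, 72 (15 higher, 57 lower) were kept in all 6 of these fits, and 230 higher and 395 lower calls were lost in every one. Below, "kept throughout" refers to those 6 fits. Not every call kept in all of them is marked so, and most calls were lost without at least 1 library. The shares over all genes, 3.53% higher and 6.22% lower, stand behind each list's count.

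**Figure D1:**
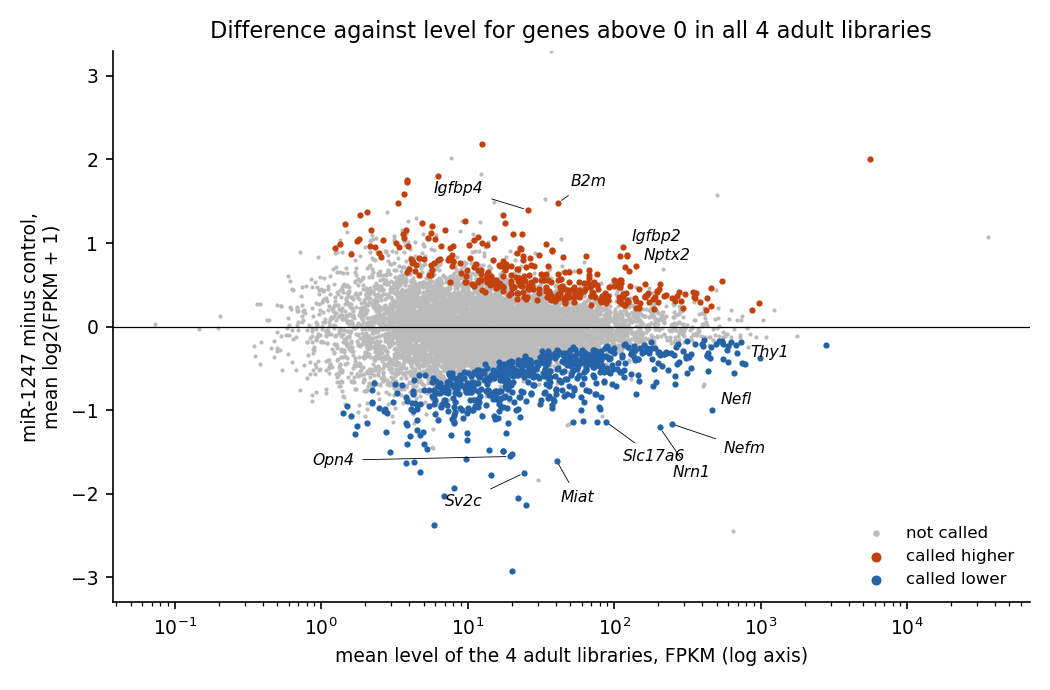
Each point is 1 of the 9853 genes above 0 in all 4 adult libraries, placed by its mean adult level in FPKM (log axis) and by its difference in mean log2(FPKM + 1), miR-1247 minus control (1 gene lies beyond the vertical axis). Called genes, 353 higher and 621 lower over all tested genes, lie around a grey band of genes not called that widens toward low levels, with the RGC genes Nefl, Nefm and Nrn1 near −1 at high levels.

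The genes that mark RGCs were lower together with the mimic. Of 28 listed, 27 were in the table, and all 27 had both miR-1247 libraries below both controls, against 32.4% of all genes. Lower calls numbered 23 of 27 (85.2%, against 6.22% of all genes), and none was higher. Their median log2 difference was −0.69, from −1.55 to −0.10, against −0.03 for all genes. In all 16 other fits between 17 and 23 of the 27 were called lower, and 17 were kept throughout. The list's summed level was 5389 to 5450 FPKM in the controls and 3492 to 3517 FPKM in the miR-1247 libraries. In bulk samples, fewer cells of a type and less RNA per cell cannot be told apart.

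The transcription factors that set and maintain RGC fate were all lower. Isl2, a LIM homeodomain factor, stood at 15.8 and 13.5 FPKM in the controls and 4.70 and 5.52 FPKM in the miR-1247 libraries (log2 difference −1.35 ± 0.116, SE, limma adjusted p = 0.00339). Pou4f1, Pou4f2 and Pou4f3 are the Brn3 POU factors of RGC differentiation. Pou4f1 was at 60.6 and 61.7 FPKM in control and 34.9 and 34.4 FPKM with the mimic, and Pou4f2 at 33.1 and 32.4 FPKM in control, 16.6 and 17.8 FPKM with the mimic, differences of −0.80 ± 0.0554 and −0.89 ± 0.0759. Pou4f3 was lower by a similar amount (−0.78 ± 0.128, limma adjusted p = 0.0199), with a wider spread in control, 18.1 and 22.9 FPKM. Ebf1 (−0.73 ± 0.0811) and Ebf3 (−0.67 ± 0.0689), helix-loop-helix factors of early RGCs, were lower as well, and both were kept throughout, as were Isl2, Pou4f1 and Pou4f2. Isl1, shared by RGCs and bipolar cells, passed narrowly (14.8 and 18.4 FPKM in control, 9.22 and 11.8 FPKM with the mimic, limma adjusted p = 0.0448). At E18 each of these factors stood higher than in either adult group, for example Pou4f1 at 213 and 218 FPKM and Isl2 at 118 and 121 FPKM.

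Structural and signalling genes of mature RGCs were lower too. Nefl and Nefm, the light and medium neurofilament chains that give large axons their calibre, fell to about the same fraction of control. Nefl read 619 and 627 FPKM in the controls and 309 and 311 FPKM with the mimic, 0.498 of control (log2 difference −1.003 ± 0.0332, limma adjusted p = 6.68e-05). Nefm read 346 and 338 FPKM in control and 148 and 156 FPKM with the mimic, 0.445 of control (limma adjusted p = 0.000118). The heavy chain Nefh had a smaller difference, 82.3 and 85.8 FPKM in control, 60.1 and 59.3 FPKM with the mimic (−0.49 ± 0.0808), and its call was lost in 4 of the 6 fits. Nrn1, the secreted neurite factor neuritin, stood at 294 and 278 FPKM in control and 121 and 125 FPKM with the mimic (−1.21 ± 0.0511), with 109 and 111 FPKM at E18. Slc17a6, the vesicular transporter that loads glutamate in RGCs, stood at 124 and 119 FPKM in control and 54.98 and 54.2 FPKM with the mimic (−1.14 ± 0.0657), and at 54.9 and 50.7 FPKM at E18. As for every called gene, no adult library of one group reached into the range of the other for any of these genes. Over all tested genes, 32.4% had both miR-1247 libraries below both controls.

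Rbpms and Rbpms2, RNA-binding proteins used to count RGCs, were lower. Rbpms was at 102 and 111 FPKM in control and 58.4 and 48.1 FPKM with the mimic (−0.99 ± 0.0960) and Rbpms2 at 73.5 and 75.1 FPKM in control and 44.2 and 47.5 FPKM with the mimic (−0.68 ± 0.0685). Rbpms carries one of the seed sites printed above. Opn4, the melanopsin photopigment of light-sensing RGCs, had the list's lowest difference, 29.2 and 29.9 FPKM in control, 10.7 and 8.23 FPKM with the mimic (−1.55 ± 0.244, limma adjusted p = 0.0188), with its call kept in 2 of 6 fits. Map1a, a microtubule-associated protein (−0.96 ± 0.0951), Tppp3, which promotes tubulin assembly (−0.69 ± 0.0568), and the nicotinic subunit Chrna6 (−0.71 ± 0.0473) were lower and kept throughout. Sncg, the gamma synuclein that is among the most abundant RGC transcripts, was at 812 and 761 FPKM in control and 538 and 527 FPKM with the mimic (−0.56 ± 0.0404). Thy1, on which the cells were panned, was at 863 and 847 FPKM in control and 643 and 618 FPKM with the mimic, 0.737 of control (−0.44 ± 0.0387, limma adjusted p = 0.00364). The calls of Sncg and Thy1 were kept throughout.

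The 4 members that were not called also had lower values in both miR-1247 libraries. Pvalb, a calcium buffer, varied in control (28.2 and 41.3 FPKM in control, 20.1 and 22.1 FPKM with the mimic, limma adjusted p = 0.139). Ctxn3 read 32.7 and 32.4 FPKM in control, 24.1 and 22.3 FPKM with the mimic. The neuronal RNA-binding gene Elavl4 (47.8 and 51.3 FPKM in control, 41.5 and 42.4 FPKM with the mimic) and the ubiquitin hydrolase gene Uchl1 (514 and 501 FPKM in control, 458 and 489 FPKM with the mimic) are expressed by most neurons. They had 2 of the smallest differences of the list, −0.23 ± 0.0662 and −0.10 ± 0.0427.

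**Figure D2:**
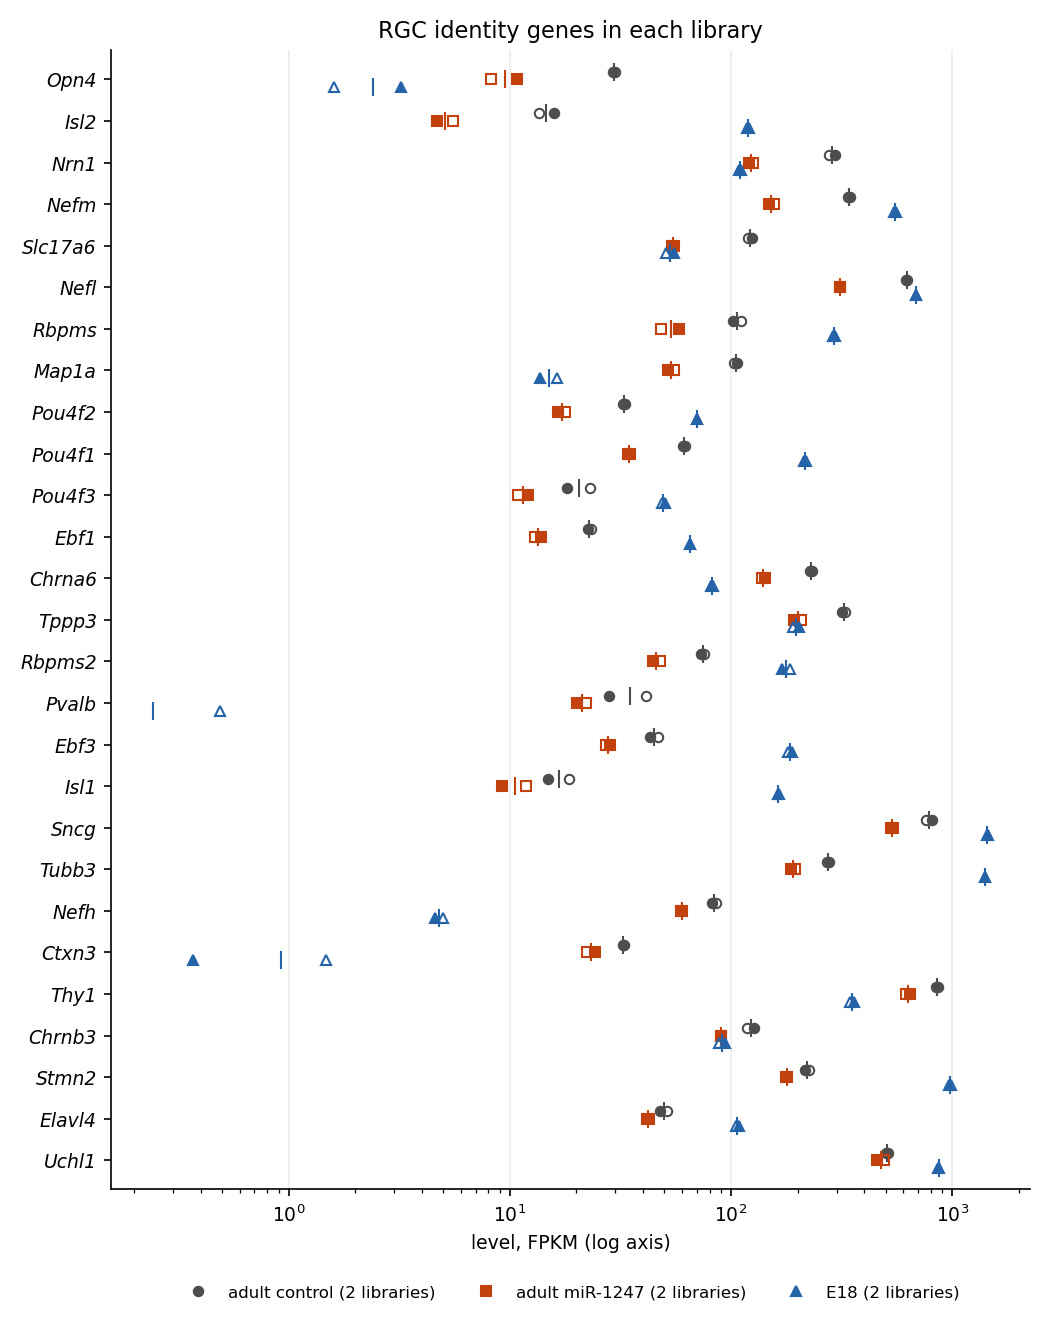
Level in FPKM (log axis) of the 27 RGC identity genes in each library, ordered by the adult difference. Filled symbols are replicate 1, open symbols replicate 2 and vertical ticks group means (a library at 0 is not drawn). In every row both miR-1247 squares lie left of both control circles, while the E18 triangles lie to either side.

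Of 30 tested genes that mark RGC subtypes, 11 were lower (36.7%), 2 higher (6.7%) and 17 not called, with a median of −0.50. Calb2, the calcium buffer calretinin, was the most abundant, at 901 and 900.1 FPKM in control and 669 and 656 FPKM with the mimic (−0.44 ± 0.0330, limma adjusted p = 0.00225), the single subtype call that was kept throughout. Calb1, calbindin, was at 24.6 and 28.2 FPKM in control and 10.5 and 12.1 FPKM with the mimic (−1.16 ± 0.162). Among transcription factors of RGC subsets, Neurod2 (−1.27 ± 0.251), Foxp2 (−0.99 ± 0.203), Irx3 (−0.87 ± 0.143) and Eomes (−0.71 ± 0.166) were called lower, all from levels under 30 FPKM in each library. Eomes marks the intrinsically light-sensitive cells that also make Opn4, and read 20.2 and 26.7 FPKM in control and 14.6 and 13.1 FPKM with the mimic.

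Jam2 (−0.56 ± 0.133), a junctional adhesion protein, Lypd6 (−0.70 ± 0.120) and the growth factor gene Igf1 (−0.72 ± 0.138) were lower too. Meis2, a homeobox gene shared with amacrine cells, was higher (174 and 163 FPKM in control, 225 and 228 FPKM with the mimic, 0.42 ± 0.0782), as was Stxbp6 (26.2 and 24.3 FPKM in control, 36.5 and 38.9 FPKM with the mimic, 0.56 ± 0.117). Not called were the opioid precursor Penk, at 63.03 and 72.6 FPKM in control and 35.04 and 25.1 FPKM with the mimic (limma adjusted p = 0.0715), the tachykinin gene Tac1, at 67.7 and 66.3 FPKM in control, 92.5 and 100.2 FPKM with the mimic, and Cartpt, at 161 and 162 FPKM in control, 146 and 155 FPKM with the mimic. Without any 1 adult library, 1 or 2 subtype genes were lower and none higher, and with no variance trend 4 were lower.

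Markers of other retinal cells moved beside the RGC genes. All 7 tested amacrine genes of 18 listed had differences above 0 (median 0.42), and their summed level was 1125 to 1148 FPKM in control and 1451 to 1510 FPKM with the mimic. Of these 7, 3 were called higher (42.9%), among them Pax6 (167 and 169 FPKM in control, 220.4 and 229 FPKM with the mimic, 0.42 ± 0.0494) and Meis2. Pax6 and Meis2 are made by subsets of RGCs as well. Gad2, the GABA-synthesizing enzyme that defines GABAergic amacrine cells, did not pass (limma adjusted p = 0.0835), at 81.2 and 82.5 FPKM in control and 104 and 110.0 FPKM with the mimic, nor did the glycine transporter gene Slc6a9, at 31.2 and 30.1 FPKM in control, 34.5 and 41.2 FPKM with the mimic. The number of calls in this list was 0 with no variance trend, 3 or 4 in the other fits with all 4 adult libraries, and 1 or 2 without an adult library. The part of amacrine RNA in the lower RGC genes was not tested.

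Of 7 tested Müller glia and astrocyte genes of 16 listed, Dkk3 (391 and 366 FPKM in control, 476 and 486 FPKM with the mimic) and Dbi (37.5 and 36.1 FPKM in control, 48.4 and 51.8 FPKM with the mimic) were higher. Glul, the glutamine synthetase of Müller cells, did not pass, at 463 and 122 FPKM in control and 795 and 632 FPKM with the mimic. Aldoc read 511 and 530.1 FPKM in control, 509 and 536 FPKM with the mimic. All 7 differences lay above 0 (median 0.25), and the list's sum was 1266 to 1612 FPKM in control and 1960 to 2065 FPKM with the mimic. Of the 16 rod genes listed, 2 were tested. Rom1 was lower (29.8 and 29.2 FPKM in control, 15.98 and 12.99 FPKM with the mimic, −0.98 ± 0.183), while Reep6 (16.4 and 15.4 FPKM in control, 10.9 and 11.3 FPKM with the mimic) did not pass. Of 4 tested bipolar genes of 14 listed, 3 had differences above 0 and none of these was called (list median 0.43, from −0.61 to 1.15). Isl1, which RGCs share, was lower, and Prkca (22.7 and 27.97 FPKM in control, 36.9 and 33.9 FPKM with the mimic) narrowly missed (limma adjusted p = 0.0597). Of 3 tested horizontal cell genes Calb1, which RGCs share, was lower. Mbp of oligodendrocytes (0.62 ± 0.132) and the collagen gene Col6a1 of fibroblasts (0.97 ± 0.140) were higher, from sums of 35.4 to 36.8 FPKM and 11.1 to 13.1 FPKM for their lists in control. None of the cone, endothelial, erythroid and pigment epithelium markers was tested, and of 16 microglial and 13 lens genes listed 1 each was tested and neither was called. The lens gene was Crybb3 (2.71 and 0 FPKM in control, 5.51 and 6.73 FPKM with the mimic). The part of RNA from these cells in the RGC result was not tested.

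Cytoskeletal genes of the axon shifted with the RGC genes, and the lists share members. Of 15 intermediate filament and tubulin genes, 9 were lower (60.0%) and none higher, with a median of −0.44. Without 1 library, 4 to 7 were lower. Besides the neurofilaments, Ina, the internexin that coassembles with them, was at 242 and 228 FPKM in control and 151 and 146 FPKM with the mimic (−0.66 ± 0.0473, kept throughout). Tubb3, the neuron-specific beta tubulin, was at 276 and 272 FPKM in control and 187 and 195 FPKM with the mimic (−0.52 ± 0.0387, kept throughout), against 1412 and 1404 FPKM at E18. Tuba4a (−0.50 ± 0.0749), Tubb4b (−0.44 ± 0.0537), Tubb2a (−0.24 ± 0.0339) and Tubb4a (−0.17 ± 0.0393) were lower by less. Tubb2b, a tubulin of immature neurons, was not called (33.6 and 35.7 FPKM in control, 34.1 and 40.4 FPKM with the mimic).

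Axon growth genes did not move as one. Of 47, 10 were lower (21.3%) and 3 higher (6.4%), with a median of −0.09, and without 1 library 3 to 9 were lower and 1 or 2 higher. Marcksl1 and Marcks, actin-binding substrates of protein kinase C at the plasma membrane, were higher, Marcksl1 at 83.5 and 77.7 FPKM in control and 118 and 119.9 FPKM with the mimic (0.56 ± 0.0538, limma adjusted p = 0.00490, kept throughout) and Marcks at 181 and 162 FPKM in control and 241 and 227 FPKM with the mimic (0.45 ± 0.0647). At E18 Marcksl1 read 673 and 704 FPKM. The dendritic microtubule protein gene Map2 was higher as well (0.29 ± 0.0568, limma adjusted p = 0.0307). Lower were the adhesion genes Cntn1 (−0.63 ± 0.0734) and L1cam (−0.41 ± 0.0508), the collapsin response gene Dpysl5 (−0.51 ± 0.0608), Tmod2, which caps actin filaments (−0.54 ± 0.0622), the stathmins Stmn3 (−0.34 ± 0.0339, kept throughout) and Stmn2 (−0.30 ± 0.0415), Map1b (−0.32 ± 0.0397, summed over 2 loci of which 1 was lower and 1 level) and Rtn4 (−0.30 ± 0.0432), which encodes the myelin inhibitor Nogo and is also made by neurons.

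Gap43, the growth cone protein, was not called, at 141 and 155 FPKM in control and 141 and 127 FPKM with the mimic. Nor were regulators of axon regrowth in the list. Klf9 read 51.6 and 55.02 FPKM in control, 45.4 and 47.4 FPKM with the mimic, Klf7 read 11.8 and 10.6 FPKM in control, 7.32 and 8.96 FPKM with the mimic (limma adjusted p = 0.0788) and Sox11 read 1.52 and 1.40 FPKM in control, 1.70 and 1.47 FPKM with the mimic. A missed threshold does not show equal levels, and 2 libraries a group limit what could be detected.

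Among 42 guidance genes 7 were lower (16.7%) and 1 higher (2.4%), with a median of −0.10. Efnb3, the transmembrane ligand ephrin-B3, was higher (20.6 and 21.5 FPKM in control, 35.2 and 35.5 FPKM with the mimic, 0.72 ± 0.0818, limma adjusted p = 0.00782). The semaphorin receptors Nrp2 (−0.65 ± 0.139) and Nrp1 over both loci (−0.61 ± 0.146), the ligands Sema3e (−0.90 ± 0.139), Sema7a (−0.84 ± 0.150) and Sema4f (−0.55 ± 0.126), the ephrin receptor Epha5 (−0.55 ± 0.0989) and the slit receptor Robo2 (−0.34 ± 0.0657) were lower. Robo2 was the most abundant of them (39.3 and 37.9 FPKM in control, 30.7 and 30.00 FPKM with the mimic). None of these calls was kept throughout, and without 1 library 0 or 1 gene was lower.

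Growth factor binding genes held some of the firmest increases, while their list had as many lower calls as higher ones. Of 46 genes of mTOR, JAK-STAT and growth factor signalling, 3 were higher (6.5%) and 3 lower (6.5%), with a median of −0.01. Without 1 adult library, 2 were higher and 0 lower. Igfbp4 and Igfbp2, secreted proteins that bind insulin-like growth factors, were both kept throughout. Igfbp4 (chromosome 11, 98930852 to 98945218, mm39) stood at 13.4 and 13.9 FPKM in control and 38.8 and 36.4 FPKM with the mimic, 2.75-fold higher (1.40 ± 0.0887, limma adjusted p = 0.00167). Igfbp2 stood at 81.3 and 74.8 FPKM in control and 146 and 159 FPKM with the mimic, 1.95-fold higher (0.95 ± 0.0761, limma adjusted p = 0.00274), with 29.5 and 27.9 FPKM at E18. Ngfr, the p75 neurotrophin receptor, was at 18.9 and 18.9 FPKM in control and 30.1 and 28.5 FPKM with the mimic (0.60 ± 0.0817).

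On the other side Igf1, already named among the subtype genes, and Fgf12 were among the 3 lower genes. Fgf12 encodes an intracellular partner of sodium channels and not a secreted factor, and read 124 and 132 FPKM in control and 75.8 and 80.2 FPKM with the mimic (−0.71 ± 0.107). The receptor gene Igf1r (0.50 ± 0.137), Stat3 (0.47 ± 0.137), Socs2 (0.58 ± 0.295), Mtor (−0.09 ± 0.108) and Bdnf (−0.44 ± 0.272) were not called.

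Of 36 genes of the DLK and JNK axis and the injury response none was higher and 3 were lower (8.3%, against 6.22% of all genes), with a median of −0.14. Adcyap1, the neuropeptide PACAP, was at 12.6 and 14.6 FPKM in control and 6.38 and 6.47 FPKM with the mimic (−0.97 ± 0.165). Mapk10, the neuronal JNK3 (−0.31 ± 0.0734), and the JNK scaffold gene Mapk8ip1 (−0.23 ± 0.0520) were lower, with limma adjusted p of 0.0475 and 0.0426. DLK itself, Map3k12, was not called (27.02 and 23.2 FPKM in control, 22.4 and 21.1 FPKM with the mimic), nor were its effector gene Jun (19.8 and 19.5 FPKM in control, 24.5 and 23.3 FPKM with the mimic) and the stress factor gene Ddit3 (39.98 and 36.9 FPKM in control, 30.1 and 37.5 FPKM with the mimic). Of 20 immediate early and dissociation genes 3 were lower (15%), Egr1 (−0.57 ± 0.129), Fos (−0.36 ± 0.0704) and the phosphatase gene Dusp1 (−0.35 ± 0.0804), and none higher. Both lists had 0 calls without any 1 library.

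Of 42 genes of synaptic vesicles and release, 12 were lower (28.6%), 6 higher (14.3%) and 24 not called, with a median of −0.11. Without 1 adult library, 4 or 5 were lower and 0 higher. Sv2c, a vesicle membrane protein, was the lowest, at 36.4 and 39.5 FPKM in control and 11.2 and 9.93 FPKM with the mimic (−1.75 ± 0.117, limma adjusted p = 0.00191, kept throughout). It carries one of the seed sites printed above. Vamp1, a vesicle SNARE, was lower (83.4 and 85.02 FPKM in control, 39.4 and 36.7 FPKM with the mimic, −1.13 ± 0.165), whereas its paralog Vamp2 was higher (818 and 808 FPKM in control, 938 and 935 FPKM with the mimic, 0.20 ± 0.0330). Cplx1, a complexin that clamps release, was lower (308 and 314 FPKM in control, 213 and 201 FPKM with the mimic, −0.59 ± 0.0576, kept throughout) and Cplx2 higher (419.6 and 419.9 FPKM in control, 496 and 498 FPKM with the mimic, 0.24 ± 0.0375). Among synucleins Sncg was lower and Sncb was higher (868 and 891 FPKM in control, 1079 and 1066 FPKM with the mimic, 0.29 ± 0.0374).

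Snap25, the SNARE with the highest level in the table outside the mitochondrial genome among called genes, was at 3014 and 3030.0 FPKM in control and 2579.6 and 2610.2 FPKM with the mimic over both loci (−0.22 ± 0.0317). Syp, synaptophysin, was slightly lower (−0.23 ± 0.0397), and Synpr, synaptoporin, higher (237 and 241 FPKM in control, 311 and 325 FPKM with the mimic, 0.41 ± 0.0561). The active zone scaffold Bsn (0.30 ± 0.0712) and the priming factor Unc13b (0.40 ± 0.0945) were higher with limma adjusted p of 0.0480 and 0.0463. With no variance trend no member of the list was called higher.

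Of 29 voltage-gated sodium and calcium channel genes 6 were lower (20.7%) and 1 higher (3.4%). Without 1 adult library, 0 to 2 were lower (0 without control library 2). The pore-forming sodium channels Scn1a (42.3 and 42.6 FPKM in control, 25.8 and 22.2 FPKM with the mimic, −0.80 ± 0.108) and Scn2a (40.8 and 48.3 FPKM in control, 28.7 and 29.1 FPKM with the mimic, −0.60 ± 0.104) and the auxiliary subunit Scn2b (−0.42 ± 0.0863) were lower, as were the calcium channel subunits Cacnb1 (−0.77 ± 0.142) and Cacnb3 (−0.49 ± 0.0642). Cacna2d2 was higher (0.46 ± 0.0933). Of 36 potassium and HCN channel genes 6 were lower (16.7%) and 2 higher (5.6%). This count became 1 lower and 0 higher without any 1 adult library, and 5 in each direction with the adult libraries alone. Kcna2, Kcnd2, Kcnh1, Kcnab2 and Kcnip4 were lower, with differences of −0.66 ± 0.122, −0.93 ± 0.126, −1.01 ± 0.163, −0.54 ± 0.0673 and −0.76 ± 0.119. Kcnh2 (0.39 ± 0.0696) and Kcnip3 (0.53 ± 0.0998) were higher. The medians of both lists, −0.03 and −0.07, were near that of all genes.

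Of 41 transmitter receptor genes 6 were lower (14.6%) and 1 higher (2.4%), or 1 to 3 lower and 0 higher without 1 library. In the full fit 4 of the 6 encode nicotinic acetylcholine receptor subunits. These were Chrna3 (19.4 and 20.3 FPKM in control, 11.6 and 9.84 FPKM with the mimic, −0.83 ± 0.106), Chrna4 (−0.41 ± 0.0938), Chrna6 (232 and 228 FPKM in control, 142 and 138 FPKM with the mimic) and Chrnb3 (127 and 118 FPKM in control, 90.2 and 90.1 FPKM with the mimic). Chrna6 and Chrnb3 are also members of the RGC identity list and were counted there. Lynx1, a membrane-anchored protein that binds and restrains nicotinic receptors, is in no list and was lower as well, at 177 and 179 FPKM in control and 101 and 103 FPKM with the mimic (−0.80 ± 0.0721, kept throughout), and holds the 8mer site printed above. The glutamate receptor genes Grin3a (−0.65 ± 0.145) and Grid1 (−0.58 ± 0.137) were lower, and the GABA receptor gene Gabra3 was higher (0.35 ± 0.0833).

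Among 20 neuropeptide and granin genes 5 were lower (25%) and 3 higher (15%). The balance turned without any 1 adult library (0 lower, 2 higher), without either E18 library (2 and 3) and with no variance trend (1 and 2). Nptx2, a secreted pentraxin that clusters AMPA receptors, was at 108 and 103 FPKM in control and 173 and 177 FPKM with the mimic (0.73 ± 0.0670, limma adjusted p = 0.00436, kept throughout), with 14.9 and 16.2 FPKM at E18. The locus Cbx6/Nptxr, which holds the receptor of the same family, was lower (242 and 246 FPKM in control, 196 and 193 FPKM with the mimic, −0.33 ± 0.0545). Chga, chromogranin A, was higher (0.20 ± 0.0420), while the secretory granule genes Scg5 (−0.34 ± 0.0459) and Scg3 (−0.21 ± 0.0473) were lower.

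Of 44 kinesin and dynein genes 9 were lower (20.5%, against 6.22% of all genes) and none higher, with a median of −0.08. Without any 1 library 1 or 2 were lower, and with the adult libraries alone or no variance trend 1 was. Kif5a, the neuronal kinesin-1 motor that carries neurofilaments and mitochondria, was at 183 and 176 FPKM in control and 116 and 112 FPKM with the mimic (−0.65 ± 0.0471, limma adjusted p = 0.00208, kept throughout). Its paralog Kif5c had a smaller difference (124 and 129 FPKM in control, 109 and 108 FPKM with the mimic, −0.22 ± 0.0479). Kif1a and Kif1b, which carry synaptic vesicle precursors, were lower (differences of −0.29 ± 0.0498 and −0.34 ± 0.0611), and so was Kif2a, which depolymerizes microtubules (−0.59 ± 0.111). Of 35 genes of mitochondrial fusion, fission and transport 6 were lower (17.1%), or 1 or 2 without any 1 library, among them Dnm1l, the fission GTPase (−0.40 ± 0.0648), Gdap1 (−0.53 ± 0.0907) and Armcx2 (−0.52 ± 0.0711), and Mfn1, the fusion GTPase mitofusin 1, was higher (4.26 and 4.10 FPKM in control, 6.14 and 7.91 FPKM with the mimic, limma adjusted p = 0.0463). Of 46 Rab GTPase genes 4 were lower (8.7%) and 1 higher (2.2%), and the V-ATPase list had 1 of 19 in each direction (5.3%), near the 6.22% and 3.53% of all genes.

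Of 19 glycolysis genes 5 were lower (26.3%, against 6.22% of all genes) and 1 higher (5.3%), with a median of −0.11. Lower calls numbered 0 without either miR-1247 library and 2 without either control library, each with 1 higher, and with no variance trend there were 0 calls. Eno2, the neuronal enolase, was at 625 and 642 FPKM in control and 479 and 485 FPKM with the mimic (−0.39 ± 0.0638), Pkm, pyruvate kinase, at 1073 and 1147 FPKM in control and 845 and 867 FPKM with the mimic (−0.37 ± 0.0436), and Tpi1, triose phosphate isomerase, at 778 and 753 FPKM in control and 620.2 and 612 FPKM with the mimic (−0.31 ± 0.0356). Tpi1 has the same locus coordinates as Spsb2, which moved the other way, so the call of Tpi1 is uncertain. Pfkl (−0.41 ± 0.0773) and Ldhb (−0.24 ± 0.0569) were lower as well. Ldha, the lactate dehydrogenase chain that favours lactate formation, was higher at 306 and 309 FPKM in control and 394 and 396 FPKM with the mimic (0.36 ± 0.0361, limma adjusted p = 0.00532, kept throughout). Slc16a3, the lactate exporter MCT4, was at 27.6 and 24.3 FPKM in control and 48.1 and 51.1 FPKM with the mimic (0.91 ± 0.0879, kept throughout), and Car2, carbonic anhydrase II, at 76.1 and 79.9 FPKM in control and 138 and 143 FPKM with the mimic (0.84 ± 0.0754, kept throughout). Slc16a3 and Car2 were named after their values were seen.

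Of 27 genes of cholesterol synthesis and its control 6 were lower (22.2%, against 6.22% of all genes) and 1 higher (3.7%), with a median of −0.24, and 21 lay below 0. Lower calls numbered 1 or 2 without any 1 library, and 1 with the adult libraries alone or with no variance trend. The locus Fdps/Rusc1, which holds the farnesyl diphosphate synthase gene, was at 105 and 103 FPKM in control and 65.8 and 66.2 FPKM with the mimic (−0.65 ± 0.0495, kept throughout). Hmgcs1, at the entry to the pathway, was at 149 and 158 FPKM in control and 123 and 116 FPKM with the mimic (−0.36 ± 0.0511), and Cyp51 (−0.50 ± 0.0909), Nsdhl (−0.46 ± 0.0935) and the feedback gene Insig1 (−0.37 ± 0.0637) were lower as well. Ebp, a sterol isomerase, was higher (4.13 and 6.61 FPKM in control, 10.04 and 10.6 FPKM with the mimic, limma adjusted p = 0.0444).

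Of 45 nuclear genes of respiratory complex I, 4 were higher (8.9%, against 3.53% of all genes) and 2 lower (4.4%, against 6.22%). The accessory subunits Ndufa3 (15.1 and 13.7 FPKM in control, 34.9 and 29.6 FPKM with the mimic, 1.11 ± 0.139) and Ndufa6 (86.6 and 92.2 FPKM in control, 136 and 158 FPKM with the mimic, 0.71 ± 0.0830) led, and the core subunit Ndufs1 was lower (−0.46 ± 0.109). Of 60 genes of complexes II to V, 1 was higher (1.7%) and 3 lower (5.0%). Atp5mpl was higher (97.7 and 97.6 FPKM in control, 152 and 158 FPKM with the mimic, 0.66 ± 0.0704), and Uqcrc1, Uqcrfs1 and Atp5b were lower (−0.36 ± 0.0851, −0.29 ± 0.0540 and −0.21 ± 0.0370). Of 78 mitochondrial ribosomal genes 4 were higher (5.1%) and none lower, and Mrpl34 was the firmest (31.6 and 32.5 FPKM in control, 52.1 and 48.3 FPKM with the mimic, 0.63 ± 0.0718). The medians of these 3 lists were 0.02, 0.00 and 0.01, and without any 1 library each had 0 to 2 higher calls and 0 or 1 lower.

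Of 81 cytoplasmic ribosomal protein genes 10 were higher (12.3%) and 4 lower (4.9%), with a median of 0.16, and 59 lay above 0. Rps14 (84.95 and 87.7 FPKM in control, 117 and 133 FPKM with the mimic), Rps27 (38.1 and 50.9 FPKM in control, 69.1 and 71.9 FPKM with the mimic) and Rpl26 (177 and 156 FPKM in control, 211 and 215 FPKM with the mimic) were among the higher ones. Rpl37 (104 and 117 FPKM in control, 77.7 and 73.00 FPKM with the mimic) and Rps2 (133 and 139 FPKM in control, 102 and 88.7 FPKM with the mimic) were lower. With no variance trend the list had 0 calls in either direction, and it had 0 without either E18 library. Ribosomal protein genes have many pseudogene copies, and how their reads were shared out is not given in the sources used here. Of 39 proteasome genes 5 were lower (12.8%), or 0 or 1 without any 1 library, 4 of them ATPases of the base (Psmc1, Psmc2, Psmc4 and Psmc5, from −0.49 ± 0.0595 to −0.33 ± 0.0604). Psme1, an interferon-induced activator subunit, was higher (19.9 and 24.1 FPKM in control, 32.1 and 32.1 FPKM with the mimic, 0.53 ± 0.101).

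The mitochondrial genome itself stood apart in the table. A joined entry for 9 protein genes (mt-Co1 to mt-Nd5) read 2178 and 2238 FPKM in control and 8848 and 8921 FPKM with the mimic, and 5869 and 5899 FPKM at E18. mt-Cytb was listed at 0 in both controls, against 3691 and 3743 FPKM with the mimic and 3069 and 3166 FPKM at E18, and mt-Nd6 at 0 against 1297 and 1232 FPKM. The coordinates of mt-Nd6 (5328 to 14070 on the mitochondrial chromosome) overlap the joined entry. The entry mt-Nd1/mt-Nd2 read 35797 and 12777 FPKM in control and 33062 and 61217 FPKM with the mimic and was not called. Every cell uses mt-Cytb, so a 0 may be a failed estimate, and no fold is given for mt-Cytb or mt-Nd6. A change in RNA and a change in how fragments were divided between entries cannot be told apart here.

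B2m and H2-D1 of MHC class I, which presents peptides at the cell surface, were higher with the mimic. Of 11 tested genes of 37 listed for MHC class I and interferon response, 3 were higher (27.3%) and none lower, with a median of 0.28. The list was split, with 6 genes above 0 and 5 below, and differences ran from −1.12 to 1.48. B2m, the light chain of every class I molecule, was at 23.3 and 19.6 FPKM in control and 62.2 and 60.9 FPKM with the mimic, 2.87-fold higher (1.48 ± 0.191, limma adjusted p = 0.0115). The heavy chain gene H2-D1 was at 60.1 and 59.03 FPKM in control and 95.6 and 89.6 FPKM with the mimic (0.63 ± 0.0715, limma adjusted p = 0.00782). The locus Irf9/Rnf31, which holds an interferon signalling factor, was higher (5.84 and 6.77 FPKM in control, 11.4 and 11.3 FPKM with the mimic, limma adjusted p = 0.0489). Stat2 (9.99 and 11.5 FPKM in control, 9.67 and 9.38 FPKM with the mimic) and Ifi27 (2.16 and 7.52 FPKM in control, 3.09 and 2.73 FPKM with the mimic) did not pass. The list had 0 calls without miR-1247 library 1 and 1 in each direction without miR-1247 library 2, and B2m was kept in 3 of the 6 fits and H2-D1 in 5.

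Among 35 chaperone genes 4 were lower (11.4%) and 2 higher (5.7%), or 1 and 0 without any 1 library. Hsp90aa1, the inducible Hsp90, was at 378 and 373 FPKM in control and 256 and 255 FPKM with the mimic (−0.55 ± 0.0377, kept throughout), and the constitutive Hsp90ab1 at 796 and 769 FPKM in control and 703 and 672 FPKM with the mimic (−0.19 ± 0.0393). The chaperonin gene Cct8 was lower (−0.51 ± 0.0762), and Calr, calreticulin, which loads MHC class I in the endoplasmic reticulum, was higher (0.29 ± 0.0654).

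Of 26 genes of the microRNA pathway, Cnot3, a subunit of the deadenylase complex, was higher (12.9 and 13.8 FPKM in control, 18.9 and 20.4 FPKM with the mimic, 0.53 ± 0.102) and none was lower, with a median of 0.02. Ago2, the slicing Argonaute, read 4.37 and 6.24 FPKM in control, 6.60 and 6.76 FPKM with the mimic, Dicer1 read 6.70 and 9.75 FPKM in control, 8.54 and 11.1 FPKM with the mimic and Drosha read 21.6 and 22.2 FPKM in control, 18.97 and 21.97 FPKM with the mimic, and none of these passed. In the Dlk1-Dio3 region, which also holds Mir1247, the noncoding RNA Meg3 was higher (50.3 and 48.05 FPKM in control, 67.5 and 64.4 FPKM with the mimic, 0.42 ± 0.0537), against 502 and 502 FPKM at E18. Meg3 was the single call among 7 genes of the region, and without control library 2 the count was 0 higher and 1 lower. Its neighbour Rian read 2349 and 82.5 FPKM in control and 83.9 and 76.6 FPKM with the mimic, so control library 1 alone set its mean. Of 246 zinc finger genes named Zfp, 6 were higher (2.4%) and 2 lower (0.8%), against 3.53% and 6.22% of all genes.

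**Figure D3:**
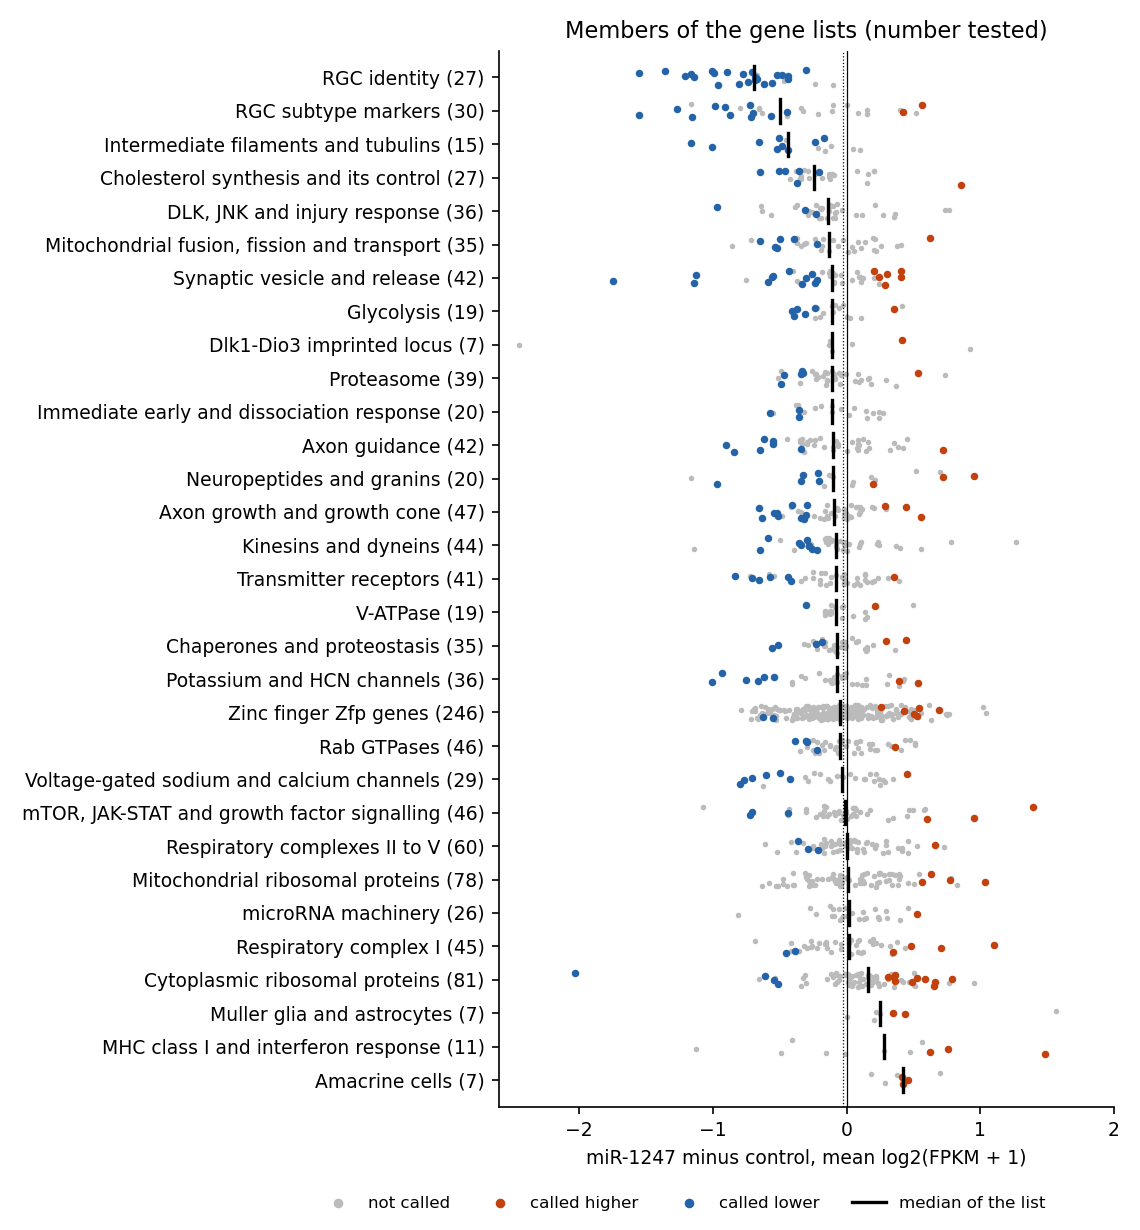
Difference in mean log2(FPKM + 1), miR-1247 minus control, of every tested member (points) of the gene lists with 7 or more tested genes, with list medians as black bars, 0 as a solid line and the median of all genes (−0.03) as a dotted line. RGC identity genes lie left of 0 throughout (median −0.69), and amacrine genes lie right of it (median 0.42).

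The lowest genes with at least 5 FPKM on average and no 0 in an adult library included several that no list holds. Miat, a long noncoding RNA of neurons (chromosome 5, 112361094 to 112381586, mm39), was at 62.8 and 60.02 FPKM in control and 20.4 and 18.7 FPKM with the mimic (−1.60 ± 0.0687, limma adjusted p = 0.000203), against 202 and 204 FPKM at E18. Nell1, a secreted glycoprotein with EGF-like repeats, was at 26.4 and 25.5 FPKM in control and 8.64 and 8.64 FPKM with the mimic (−1.48 ± 0.117). Ten1, a telomere capping subunit, was at 22.8 and 19.6 FPKM in control and 6.70 and 7.24 FPKM with the mimic (−1.48 ± 0.127), and Rpf1, a ribosome assembly factor, at 26.9 and 33.4 FPKM in control and 9.91 and 9.60 FPKM with the mimic (−1.53 ± 0.137). These 4 were kept throughout. Lrp1b, an endocytic receptor (22.6 and 50.1 FPKM in control, 9.15 and 5.97 FPKM with the mimic), Rbm3, the cold-shock RNA-binding protein (25.8 and 19.7 FPKM in control, 8.24 and 4.13 FPKM with the mimic), Coa6 (27.8 and 24.01 FPKM in control, 6.85 and 10.7 FPKM with the mimic), Cbr4 (18.6 and 11.3 FPKM in control, 5.92 and 2.91 FPKM with the mimic), Myl2 (7.96 and 13.1 FPKM in control, 1.18 and 1.18 FPKM with the mimic), Rps27l (8.15 and 15.3 FPKM in control, 2.76 and 1.38 FPKM with the mimic) and 3110009E18Rik (17.9 and 8.98 FPKM in control, 3.07 and 2.20 FPKM with the mimic) spread more between replicates, and their calls were not. Fam234a (60.1 and 14.7 FPKM in control, 3.02 and 3.16 FPKM with the mimic) and Shld2 (46.2 and 35.1 FPKM in control, 5.20 and 13.4 FPKM with the mimic) are sums of several loci at the same coordinates, of which 1 locus made most of the difference.

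On the higher side, Snrpe, a core spliceosome protein, was at 5.33 and 2.67 FPKM in control and 21.6 and 20.2 FPKM with the mimic (2.18 ± 0.353), the highest difference of a nuclear gene that the same rule gave. Gm2464 (chromosome 3, 13535499 to 14247347, mm39), an annotated gene without a known role, was at 2.20 and 2.20 FPKM in control and 8.94 and 11.6 FPKM with the mimic (1.80 ± 0.185, kept throughout). Rac3, a small GTPase of neurons, was at 10.3 and 8.50 FPKM in control and 20.99 and 30.2 FPKM with the mimic (1.34 ± 0.180), against 119 and 104 FPKM at E18. Phf10 (4.73 and 5.70 FPKM in control, 12.2 and 15.9 FPKM with the mimic) is a subunit of a chromatin remodelling complex. The snoRNA host genes Zfas1 (3.26 and 4.77 FPKM in control, 9.38 and 10.8 FPKM with the mimic) and Snhg5 (3.04 and 3.14 FPKM in control, 5.80 and 10.6 FPKM with the mimic) were both higher from low levels, and Ubald2, Pigp and Cstf3 rose by 1.21 ± 0.219, 1.07 ± 0.249 and 1.06 ± 0.208. Psg16 (1.23 ± 0.165) and Zdhhc14 (1.10 ± 0.187) are sums over loci at the same coordinates and are uncertain.

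Among the most abundant called genes not yet named, differences were smaller. Ftl1, the ferritin light chain, was at 353 and 336 FPKM in control and 429 and 416 FPKM with the mimic (0.29 ± 0.0415), the locus Itm2b/Rb1 at 317 and 312 FPKM in control and 392 and 409 FPKM with the mimic (0.35 ± 0.0480) and E130218I03Rik at 290.4 and 332 FPKM in control and 416 and 405 FPKM with the mimic (0.40 ± 0.0752), all higher. Cfl1, the actin-severing cofilin, was at 720.3 and 729.6 FPKM in control and 634 and 614 FPKM with the mimic (−0.22 ± 0.0341), Ywhah, a 14-3-3 protein, at 668 and 711 FPKM in control and 504 and 522 FPKM with the mimic (−0.42 ± 0.0449) and Ndrg4 at 677 and 671 FPKM in control and 582 and 601 FPKM with the mimic (−0.19 ± 0.0372), all lower. Spsb2 (452 and 434 FPKM in control, 618 and 678 FPKM with the mimic) has the same locus coordinates as Tpi1, which moved the other way, so both calls are uncertain.

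**Figure D4:**
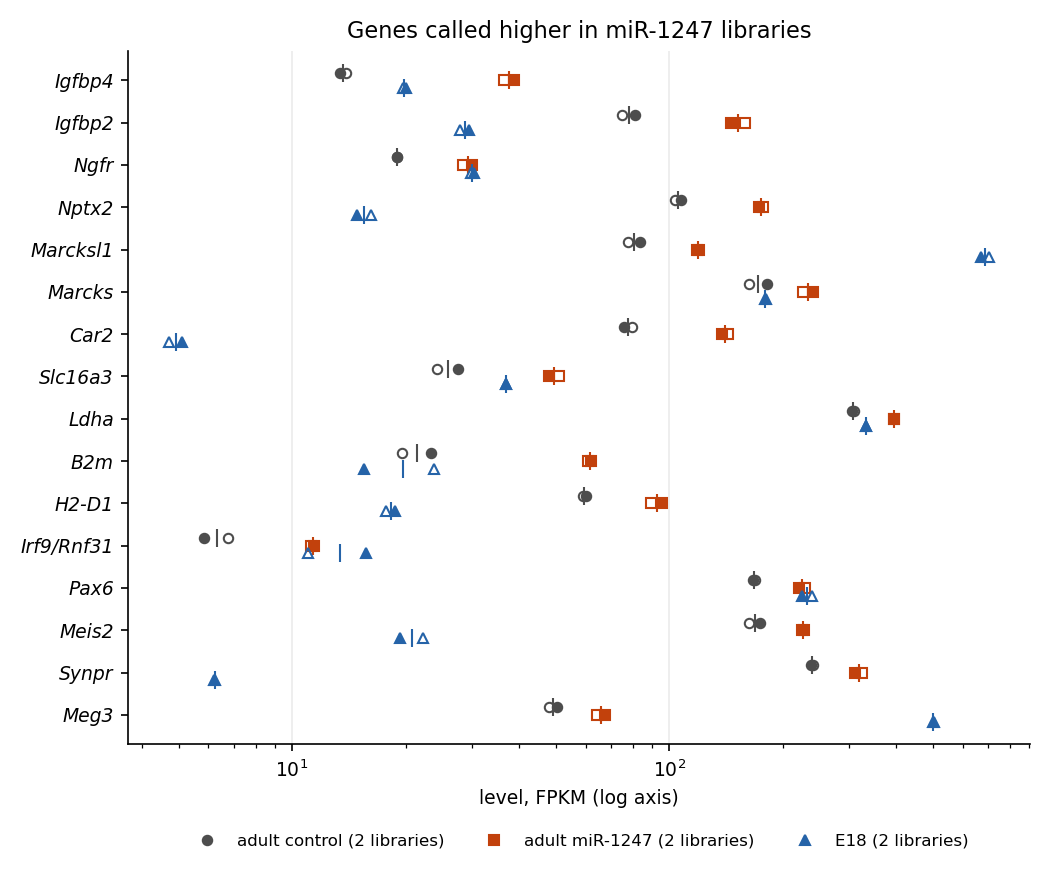
Level in FPKM (log axis) of 16 genes called higher, chosen for display after their values were seen, with symbols as in the plot of RGC identity genes. Both miR-1247 squares lie right of both control circles in every row, as for every gene called higher (25.3% of all tested genes). The E18 triangles lie below control for Igfbp2, Nptx2 and Car2 and far above it for Marcksl1 and Meg3.

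Several genes outside the lists and the naming rule were kept throughout, and are given here after their values were seen. Mfsd6, a membrane transporter-like protein, was at 107 and 103 FPKM in control and 48.9 and 45.5 FPKM with the mimic (−1.14 ± 0.0781), and Adora1, the adenosine A1 receptor, at 75.6 and 69.9 FPKM in control and 33.1 and 31.7 FPKM with the mimic (−1.14 ± 0.0915). Slc29a4, a monoamine transporter, was at 25.5 and 26.7 FPKM in control and 10.2 and 10.2 FPKM with the mimic (−1.27 ± 0.0806). Prr5, a subunit of mTOR complex 2 with a seed site, was at 10.97 and 11.7 FPKM in control and 3.93 and 4.09 FPKM with the mimic (−1.30 ± 0.135). Srgap1, which acts below Robo receptors (−1.08 ± 0.0882), Ckmt1, the mitochondrial creatine kinase (−1.002 ± 0.0699), and Nell2, a ligand of Robo3 (−0.84 ± 0.0602), were lower. Rgs4, which shortens G protein signals, was at 105 and 106 FPKM in control and 58.8 and 57.4 FPKM with the mimic (−0.85 ± 0.0484), against 384 and 372 FPKM at E18.

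Clstn3 (−0.90 ± 0.0947), a synaptic organizer, Pcdh9 (−0.93 ± 0.0943), a protocadherin, the calcium-stimulated adenylyl cyclase Adcy1 (−0.89 ± 0.0684) and Sptb (−0.81 ± 0.0798), a spectrin, were lower as well. Bcat1 (88.7 and 82.7 FPKM in control, 48.6 and 51.3 FPKM with the mimic), which transaminates branched-chain amino acids, and Cend1 (383 and 399 FPKM in control, 276 and 276 FPKM with the mimic) were lower too. Olfm1 was at 304 and 314 FPKM in control and 224 and 227 FPKM with the mimic (−0.45 ± 0.0396) and the amyloid precursor paralog Aplp2 at 367 and 364 FPKM in control and 286 and 282 FPKM with the mimic (−0.36 ± 0.0386). Fau, which encodes a ubiquitin-like protein fused to a ribosomal protein, was higher (88.1 and 91.6 FPKM in control, 131 and 135 FPKM with the mimic, 0.56 ± 0.0482).

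Seed matches of miR-1247-5p were set against the differences, with no test. Of the tested genes 9499 could be matched to a canonical transcript, 9447 of them with a 3′ UTR, and 6.32% of these were lower, 3.37% higher, with a median of −0.03. An 8mer or 7mer in the 3′ UTR was present in 486 (5.12% of the matched genes). Of these 46 (9.47%) were lower and 9 (1.85%) higher, while their median, −0.008, was slightly above that of the 8588 genes without a match (−0.031, 6.12% lower and 3.42% higher). By class, 7 of 82 genes with an 8mer were lower (8.54%, median −0.031), 26 of 232 with a 7mer-m8 (11.21%, median −0.002) and 13 of 172 with a 7mer-A1 (7.56%, median −0.018). Genes with 6mers alone (373) had 6.70% lower and 4.02% higher. Matches in coding sequence (1142 genes) had 6.30% lower and 3.33% higher.

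Genes with a site also have longer 3′ UTRs, with a median of 2863 bases against 1402 bases in genes without one, and longer transcripts have more lower calls. In the shortest quintile of transcripts (186 to 2061 bases) 6.0% were higher and 5.16% lower, and in the longest quintile (5903 to 28590 bases) 1.79% were higher and 8.0% lower. The part of length in the counts of genes with a site was not tested. Called higher genes had a median transcript of 2871 bases, called lower ones 3944 bases and genes not called 3654 bases. Calls were more frequent at high levels, with 7.26% higher and 12.79% lower in the quintile of genes with the most FPKM.

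The genes with printed sites span the classes. Sv2c, with a 7mer-A1, had the lowest difference of those kept throughout (−1.75 ± 0.117), then Isl2 and Prr5 with the same class (−1.35 ± 0.116 and −1.30 ± 0.135), Rbpms with a 7mer-m8 (−0.99 ± 0.0960) and Lynx1 with its 8mer (−0.80 ± 0.0721). Cdk14, a cyclin-dependent kinase at the membrane, was at 144 and 138 FPKM in control and 92.4 and 91.9 FPKM with the mimic (−0.61 ± 0.0509). Trmt112, a cofactor of several methyltransferases, was higher and has a 7mer-m8, at 7.84 and 8.21 FPKM in control and 15.9 and 18.2 FPKM with the mimic (0.998 ± 0.118, limma adjusted p = 0.00871). Among members of the lists, Nrp2 with an 8mer, Tmod2 and Kif2a with a 7mer-A1 and Rab2a with a 7mer-m8 were also in the lower group. A match is a property of the letters and does not show that the mimic bound there.

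**Figure D5:**
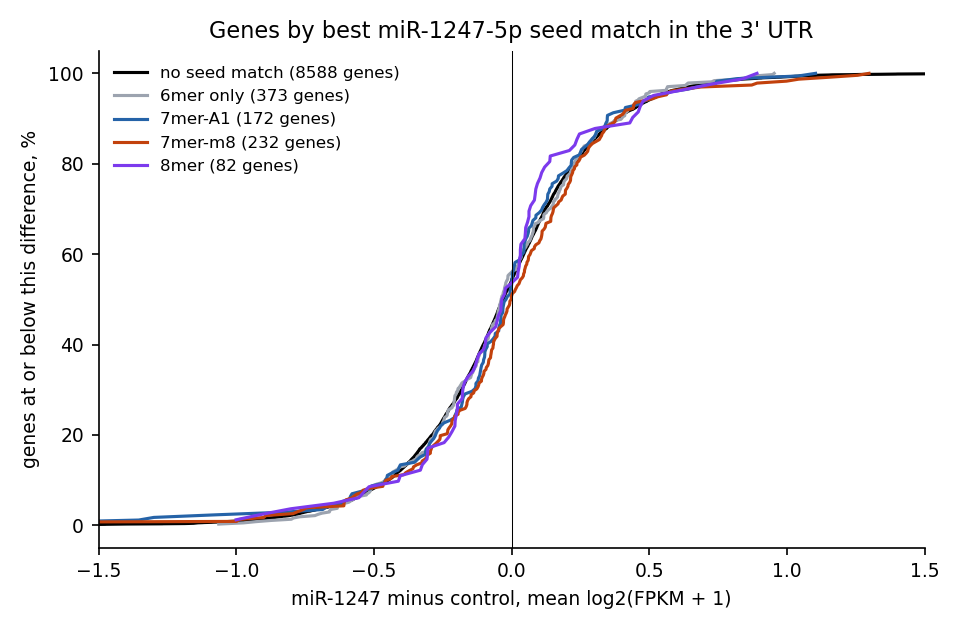
Share of genes (vertical axis, percent) at or below each difference in mean log2(FPKM + 1), miR-1247 minus control (horizontal axis), by the longest seed match in the 3′ UTR. The curves of 82 genes with an 8mer, 232 with a 7mer-m8, 172 with a 7mer-A1 and 373 with a 6mer run close to that of 8588 genes with no match, with medians from −0.038 to −0.002.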

How the data were processed

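RNA was selected by its poly-A tail and sequenced in 100-base paired reads, from samples with an RNA integrity number of at least 9, per the labels' protocols. Reads were aligned to mm39 with HISAT2 and transcripts were assembled and quantified by Cufflinks with Cuffdiff (per the submitters' processing notes), in versions not given in the sources used here. The deposited FPKM values carry an added constant of 1e-05, which was taken off. The authors' deposited log2 ratio columns were not used. The kit as named does not keep strand, so overlapping and antisense genes cannot be separated.

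The table has 11104 entries for 10361 gene names. Entries of a gene were summed, and names that share all their loci were joined with a slash, giving 10162 genes. Of the tested genes, 663 sum several loci, 180 are joined names, and 33 gene names share some but not all of their loci. limma (3.58.1, R 4.3.3) was fitted to log2(FPKM + 1) of all 6 libraries with 3 group means and a variance trend, and p-values were adjusted by Benjamini-Hochberg over 9987 genes, with a threshold of 0.05. Every log2 difference is on this scale, which understates the change of low genes, and ± is its SE from the fit, with 2 libraries a group.

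The genes to name were the 15 highest and 15 lowest called genes with a mean of at least 5 FPKM and no 0 in the 4 adult libraries, the 10 most abundant called genes in each direction outside the mitochondrial genome, members of the gene lists, and genes at 0 in both libraries of one adult group and at 5 FPKM or more in both of the other. Others are said to be chosen after their values were seen. The comparison and the lists were chosen with earlier results of these data known. Alternatives were another pseudocount, filters, scalings, loci kept apart, the adult libraries alone, no trend, a replicate block and each library left out. Seed matches were read from GENCODE transcripts with Python 3.11.15. Some members of the lists are not reported here.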

Additional observations from a re-analysis of the deposited data

How the results depend on the processing

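Alternatives changed how many genes passed. Lower calls outnumbered higher ones over all genes in every alternative, and none of the 268 named calls changed sign. Every called gene had both miR-1247 libraries on the same side of both controls. Leaving out a library could therefore not change a sign, and only the scalings and the loci kept apart could. Counts of some gene lists did turn (neuropeptides, glycolysis and the Dlk1-Dio3 region, with values beside their counts, and without 1 library also guidance, proteasome and complexes II to V). With the 4 adult libraries alone 125 genes were higher and 222 lower, and with no variance trend 107 and 236. With a replicate block there were 206 and 378, but the numbers do not pair the libraries (same-numbered libraries deviated with r of −0.008, −0.002 and 0.004). Leaving out each library in turn gave 35 to 78 higher and 86 to 165 lower genes. Other pseudocounts, filters, loci and scalings gave 306 to 467 higher and 512 to 626 lower. Of the 268 named calls, 163 did not pass with no trend, 124 with the adult libraries alone, 69 with the block, 144 to 181 without 1 library, and 0 to 30 under the rest (5 were not tested at a mean of 5 FPKM). Depth is unknown and 2 libraries a group limit what could be detected, so calls not kept throughout rest on the estimate of the spread from all 6 libraries.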

Other observations

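Some values outside the gene lists stood apart. They were chosen after the data were seen. Xist, the noncoding RNA of the inactive X chromosome, read 3.50 and 2.63 FPKM in the control libraries, was listed at 0 in both miR-1247 libraries, and read 42.6 and 37.9 FPKM at E18. Its lower call (limma adjusted p = 0.00362) was kept when each library was left out. The Y-linked gene Ddx3y read 13.6 and 15.6 FPKM in control and 12.9 and 11.1 FPKM with the mimic, and was not called (limma adjusted p = 0.275). The Y-linked gene Eif2s3y read 5.05 and 5.73 FPKM in control and 5.55 and 4.53 FPKM with the mimic. The labels used here do not give the sex of the pooled mice, and its part in the comparison was not tested.

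The gene 1190007I07Rik was listed at 0 in both control libraries and read 3.91 and 3.90 FPKM with the mimic, with 6.74 and 5.49 FPKM at E18. Rd3l, at 0.469 and 0.713 FPKM at E18, read 198 and 193 FPKM in control and 265 and 245 FPKM with the mimic, and narrowly missed the threshold (limma adjusted p = 0.0539). Rian and Glul each had 1 control library far from the other, Rian at 2349 and 82.5 FPKM and Glul at 463 and 122 FPKM. Control library 1 was the higher one in both cases. A mean of the controls describes neither library for these genes.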
